A study of Mus musculus with 101 samples.

Results

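The tumours described here are mouse mammary adenocarcinomas of the KB1P and KB2P models, divided by the copy number of the Myc gene. The members were selected on the deposited copy call of Myc: a tumour was Myc-gained at a call of 3 or more and Myc-neutral at exactly 2. The rule placed 25 tumours in the Myc-gained group (14 KB1P and 11 KB2P) and 29 in the Myc-neutral group (15 KB1P and 14 KB2P), and 0 had a Myc call under 2. Together these are 54 of the 101 samples of the series, of which 98 are tumours. In the usual naming of these conditional models, KB1P tumours lose Brca1 and Trp53 and KB2P tumours lose Brca2 and Trp53 through a Cre recombinase driven by the keratin 14 promoter, so both Myc groups share the loss of Trp53. Every tumour in the comparison is labelled as an adenocarcinoma with an epithelial share of 100%. Ages, treatments and the number of animals are not in the labels used here, and p-values therefore measure the spread between these tumours. The study set tumours with a Brca1 coiled-coil variant beside those of established models; here the question is what else differs in the genomes of KB1P and KB2P tumours that have gained Myc.

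Myc encodes a transcription factor that drives growth, ribosome production and entry into the cell cycle, and its locus is among the most often amplified in breast cancer. Brca1 and Brca2 act in homologous recombination, the pathway that repairs double-strand breaks from an intact copy, and tumours without either gene accumulate many gains and losses of chromosome parts. A copy gain can span a whole chromosome or only a short stretch around the gene that is selected, and the length of the stretch is one of the few features by which such gains can be told apart in copy-number data.

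The values are log2 ratios of read depth, averaged by the authors over segments of equal copy number and assigned to genes. A segment value near 0 is the neutral level. Genes were called as gained (3 copies or more) from 0.322 upwards and as lost from -0.415 downwards. In the 3 spleens, the normal tissue of the series, 0% of the placed genes outside chromosome 15 were altered, no breakpoint was counted, and Myc lay between -0.00226 and 0.00084. Noise between neighbouring genes averaged 0.0844 ± 0.0155 in Myc-gained tumours and 0.0821 ± 0.0163 in Myc-neutral tumours (SD, n = 25 and 29). KB2P tumours 10 and 12, both Myc-gained, had nearly identical profiles although their libraries come from different series: their segment values correlated at 0.986 across genes and 87.2% of calls were equal, against 0.675 for the next most similar pair. Both were kept, and the main results were also computed without either of them. The titles of 10 KB1P tumours read KB1PM, which the labels do not explain, and these were 7 of the 14 Myc-gained and 3 of the 15 Myc-neutral KB1P tumours. KB1P tumour 8, which is Myc-gained, has a description that names another model. All KB2P libraries were of series 3196 or 3499, and no KB1P tumour of the comparison was in either. Differences between the genotypes therefore cannot be told apart from differences between library series.

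Myc lies on mouse chromosome 15 (chr15:61985341-61990361, GRCm38.p6). Because its call chose the groups, all values on this chromosome are given as a description and were not tested. In Myc-gained KB1P tumours the segment value of Myc had a lowest value of 0.326, a median of 0.432 and a highest value of 0.903, against -0.0179, 0.0381 and 0.321 in Myc-neutral KB1P tumours. In Myc-gained KB2P tumours the lowest, median and highest values were 0.363, 0.619 and 2.27, against -0.0173, 0.0290 and 0.316 in Myc-neutral KB2P tumours. The groups do not overlap by construction, but the step between them is small. KB1P tumours 13 and 8 lay just inside the gained group at 0.326 and 0.336, and KB1P tumours 24 and 18 lay just outside it at 0.321 and 0.317. Of the Myc-neutral tumours, 5 of 15 KB1P and 3 of 14 KB2P had Myc at 0.2 or above, short of a gain call.

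**Figure D1:**
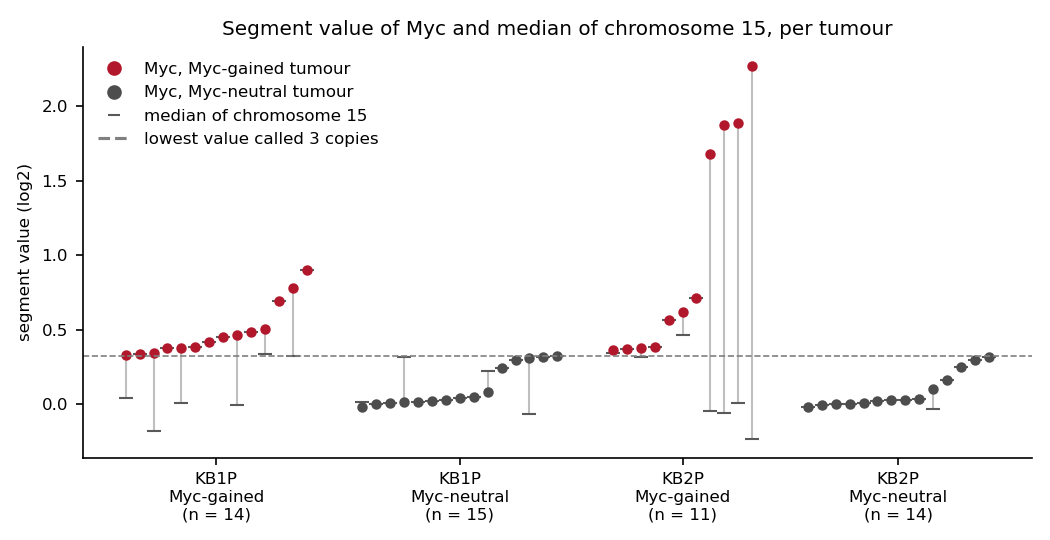
Segment value of Myc (dots, log2) and median segment value of chromosome 15 (dashes, log2) in each of the 54 tumours, ordered by the value of Myc within genotype and Myc group. The dashed line marks the lowest value called as 3 copies (0.322), and in 4 Myc-gained KB2P tumours Myc stands far above a chromosome median between -0.235 and 0.0076.

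Gains of Myc ranged from broad and low to focal and high, with cases in between. Most gains were broad and low: in Myc-gained KB1P tumours, 9 of 14 had at least 50% of the genes of chromosome 15 called as gained, and the gained stretch around Myc had a median length of 75.8 Mb (30.7 to 100.4 Mb). None of the 14 reached a segment value of 1 at Myc, and the highest, KB1P tumour 21, was called at 4 copies with the chromosome median at the same value of 0.903. In the Myc-gained KB1P tumours below 50%, Myc lay 0.288 to 0.524 above the chromosome median, in gained stretches of 30.7 to 70.3 Mb. In KB2P, 6 of 11 gains covered at least 50% of the chromosome, whereas 4 were focal and high. KB2P tumour 5 had a short stretch of 16.1 Mb with a low Myc segment value of 0.376. KB2P tumour 17 was called at 10 copies, with a Myc segment value of 2.27 and a gained stretch of 7.08 Mb. KB2P tumour 20 was called at 7 copies, with a Myc segment value of 1.89 and a stretch of 17.0 Mb from Has2 to Slc45a4, while 28.8% of its chromosome 15 genes were lost. The near-identical tumours 10 and 12 were called at 7 and 6 copies and shared a stretch of 6.53 Mb from Tbc1d31. High-level Myc gain was thus seen in 4 KB2P tumours, the near-identical pair included, and in 0 KB1P tumours. This contrast within the chosen group was not tested, and the genotypes share no library series.

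Other genes of chromosome 15 shared the gain of Myc to different extents. Pvt1, a long non-coding RNA gene beside Myc, had a gain call in 25 of the 25 Myc-gained tumours and in 0 of the 29 Myc-neutral tumours. Rad21, a cohesin subunit, and Trps1, a GATA-type transcription factor, were each gained in 14 of 14 Myc-gained KB1P tumours but in 6 of 11 Myc-gained KB2P tumours. Ptk2, which encodes focal adhesion kinase, was gained in 13 of 14 and 8 of 11. Skp2, the F-box protein that marks the cell-cycle inhibitor p27 for degradation, lies near the other end of the chromosome and was gained in 10 of 14 Myc-gained KB1P and 5 of 11 Myc-gained KB2P tumours, against 3 of 15 and 1 of 14 Myc-neutral tumours. Kmt2d, a histone methyltransferase gene on the distal part, was gained in 4 of 14 and 4 of 11 Myc-gained tumours, against 2 of 15 and 0 of 14 Myc-neutral ones. A neutral Myc call did not mean a neutral chromosome: 8 of 15 Myc-neutral KB1P tumours had some gained gene on chromosome 15, and KB1P tumour 15 had 46.4% of its genes gained with Myc at -0.018. In KB2P, 2 of 14 Myc-neutral tumours had any gained gene there.

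Outside chromosome 15, Myc-gained tumours carried a larger altered genome, and the excess was in gains. The altered share is the percent of the 31495 placed genes outside chromosome 15 with a call other than 2. In Myc-gained KB1P tumours its lowest, median and highest values were 22.04%, 48.6% and 64.1%, against 9.94%, 27.4% and 67.6% in Myc-neutral KB1P tumours. In KB2P they were 19.9%, 49.5% and 64.9% in Myc-gained tumours and 19.3%, 27.3% and 62.5% in Myc-neutral tumours. The ranges overlapped widely, but 13 of 14 Myc-gained KB1P and 9 of 11 Myc-gained KB2P tumours lay above the Myc-neutral median of their genotype. Means were 46.4 ± 13.6% against 31.3 ± 16.0% in KB1P (SD, n = 14 and 15) and 43.9 ± 14.4% against 32.0 ± 12.8% in KB2P (SD, n = 11 and 14). The difference averaged over the genotypes was 13.6 percentage points (two-sided permutation test within genotype, p = 0.00092, adjusted p = 0.0023 over 5 measures). In KB2P alone the difference was 11.9 points with an adjusted p of 0.0693 by the same permutation test. The size of the gap did not differ detectably between genotypes (KB2P gap minus KB1P gap -3.21 points, permutation p = 0.710).

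**Figure D2:**
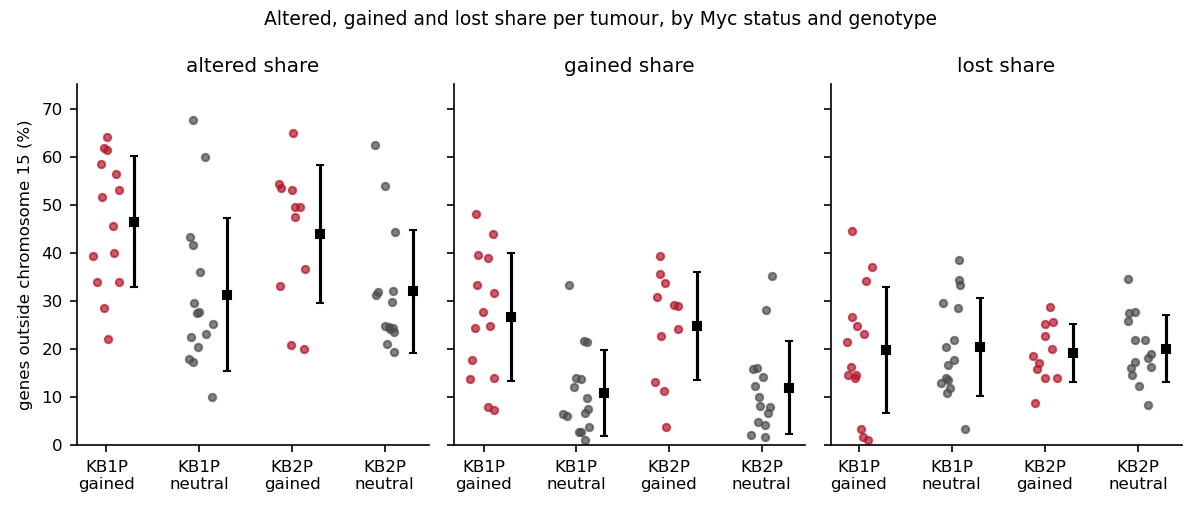
Altered, gained and lost share of the genes outside chromosome 15 (percent, vertical axis) in each tumour, by genotype and Myc group; squares and bars are the mean and SD of the 14, 15, 11 and 14 tumours. The Myc-gained groups sit higher in the altered and gained share, and the 4 groups overlap in the lost share.

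The gained share, the percent of the same genes with a call of 3 or more, was 7.36%, 26.2% and 48.1% (lowest, median, highest) in Myc-gained KB1P tumours, against 1.09%, 7.41% and 33.3% in Myc-neutral KB1P tumours. In KB2P it was 3.74%, 29.0% and 39.3% in Myc-gained tumours, against 1.59%, 9.00% and 35.1% in Myc-neutral tumours. Here 13 of 14 Myc-gained KB1P and 10 of 11 Myc-gained KB2P tumours exceeded the Myc-neutral median of their genotype, and 1 of 15 and 1 of 14 Myc-neutral tumours exceeded the Myc-gained median. The difference was 14.5 percentage points (permutation p = 2e-05, adjusted p = 1e-04), and it was present in KB1P alone (15.8 points, adjusted p = 0.00565) and in KB2P alone (12.9 points, adjusted p = 0.0318). Gained genes outnumbered lost genes in 8 of 14 Myc-gained KB1P and 8 of 11 Myc-gained KB2P tumours, against 2 of 15 and 3 of 14 Myc-neutral tumours.

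The gained share was also higher within each library series that held both groups. In KB1P the differences were 20.4 points in series 2766 (5 and 3 tumours), 11.6 points in series 5289 (3 and 5) and 8.53 points in the unnumbered series (5 and 6). In KB2P they were 14.97 points in series 3196 (9 and 11 tumours) and 6.56 points in series 3499 (2 and 3). Series 2956 and 3081 held a single tumour each and give no difference. Within the title KB1PM the difference was 19.8 points (7 and 3 tumours), and within the remaining KB1P titles it was 11.5 points (7 and 12).

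The lost share did not pass the same test. It had a lowest value of 1.01%, a median of 18.5% and a highest value of 44.5% in all Myc-gained tumours, against 3.36%, 18.1% and 38.6% in all Myc-neutral tumours. The difference was -0.81 percentage points (permutation p = 0.758, adjusted p = 0.758). In 3 Myc-gained KB1P tumours losses were few: the lost share was 1.01% in tumour 21, 1.69% in tumour 23 and 3.43% in tumour 26, whose gained shares were 38.9%, 44.0% and 48.1%.

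Position and depth of the segments differed on average between the groups. The median segment value outside chromosome 15 averaged 0.0353 ± 0.0764 in Myc-gained and -0.0256 ± 0.0489 in Myc-neutral KB1P tumours, and 0.0005 ± 0.0211 against -0.0112 ± 0.0195 in KB2P tumours (SD). A tumour whose neutral level is set higher passes the gain threshold more easily, at Myc and elsewhere. The median is not the neutral level itself, and it also rises when many genes are gained. In KB1P tumour 6 it was 0.255, with 50.9% of the genes at 0.2 or above. Subtracting it changed the gained share of that tumour from 31.6% to 3.68%. After each tumour was centred on that median the difference in gained share was 8.67 points (permutation test, adjusted p = 0.0154). With the Myc groups also redefined after centring, which moved 4 KB1P and 0 KB2P tumours to the other group, it was 10.7 points (adjusted p = 0.00085). At a lower threshold of 0.2 for gains and losses, the gained share averaged 35.1% against 18.1% in KB1P and 30.7% against 16.6% in KB2P, a difference of 15.7 points (adjusted p = 0.00025). Lost genes lay at a median segment value of -0.559 ± 0.127 in Myc-gained and -0.641 ± 0.159 in Myc-neutral tumours, and gained genes at 0.430 ± 0.093 and 0.476 ± 0.080. Both kinds of call thus lay nearer to 0 on average in the Myc-gained group, a difference that was not tested. For gained genes it was small in KB1P (0.451 ± 0.115 against 0.462 ± 0.069) and larger in KB2P (0.403 ± 0.047 against 0.491 ± 0.089). The part of tumour-cell content and of the neutral level in the gained share was not tested.

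The number of breakpoints, counted where the segment value changes between neighbouring genes, was 48, 164 and 312 (lowest, median, highest) in Myc-gained KB1P tumours, against 27, 109 and 292 in Myc-neutral ones. In KB2P it was 91, 223 and 412 in Myc-gained tumours, against 72, 143 and 244 in Myc-neutral tumours. The difference was 57.9 breakpoints (permutation p = 0.0147, adjusted p = 0.0245). With library series added to the strata it was 47.1 with an adjusted p of 0.0766. Large-scale transitions, breaks between segments of at least 10 Mb that are used as a sign of deficient homologous recombination, did not pass. They numbered 9, 19 and 29 (lowest, median, highest) in Myc-gained tumours and 8, 19 and 28 in Myc-neutral tumours, a difference of 1.37 (permutation p = 0.438, adjusted p = 0.547).

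By chromosome, 5 of the 19 chromosomes other than 15 had a higher mean segment value in Myc-gained tumours after Benjamini-Hochberg adjustment over the 19 (26.3%), and none had a lower one. They were chromosomes 1, 5, 6, 8 and 11. Differences were positive for 18 of the 19, and the exception was the X chromosome at -0.03. The shift of single chromosomes is therefore to be read beside a median difference of 0.105 over all placed genes.

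Chromosome 1 had the smallest p. Its mean segment value had a lowest value of -0.159, a median of 0.254 and a highest value of 0.679 in Myc-gained tumours, against -0.376, 0.0336 and 0.369 in Myc-neutral tumours. The difference was 0.17 on the log2 scale (permutation p = 0.00057, adjusted p = 0.0108), and on average 42.9% of its genes were gained in Myc-gained and 12.9% in Myc-neutral tumours. Casp8, the caspase that starts apoptosis downstream of death receptors, was gained in 16 of 25 Myc-gained and 6 of 29 Myc-neutral tumours. Mdm4, an inhibitor of p53, was gained in 11 and 1.

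Chromosome 6 was the most often gained chromosome in both groups. Its mean segment value was -0.175, 0.376 and 0.851 (lowest, median, highest) in Myc-gained tumours and -0.272, 0.218 and 0.619 in Myc-neutral tumours, with a difference of 0.19 (permutation test, adjusted p = 0.0116). An average of 64.4 ± 36.6% of its genes were gained in Myc-gained and 29.7 ± 31.8% in Myc-neutral tumours (SD, n = 25 and 29). The chromosome carries Cdkn1b, which encodes the cell-cycle inhibitor p27 and was gained in 20 of 25 Myc-gained and 12 of 29 Myc-neutral tumours, and Ccnd2, which encodes a cyclin of the G1 phase and was gained in 18 and 11.

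Chromosome 8, the most often lost chromosome of the Myc-neutral tumours, lay nearer to the neutral level in the Myc-gained ones. Its mean segment value was -0.640, -0.0480 and 0.529 in Myc-gained tumours and -0.938, -0.327 and 0.327 in Myc-neutral tumours, a difference of 0.22 (permutation test, adjusted p = 0.0302). The lost share of the chromosome averaged 28.4% in Myc-gained and 57.6% in Myc-neutral KB1P tumours, and 37.2% and 51.1% in the KB2P groups; the difference of -22.2 points had an unadjusted permutation p of 0.0299 and an adjusted p of 0.568 over the 19 chromosomes. Fat1, a large protocadherin counted among tumour suppressors, was lost in 4 of 25 Myc-gained and 17 of 29 Myc-neutral tumours.

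Chromosomes 5 and 11 passed with adjusted permutation p values of 0.0360 and 0.0302. On chromosome 5 the mean segment value was 0.18 ± 0.17 in Myc-gained and 0.05 ± 0.17 in Myc-neutral tumours, and on chromosome 11 it was 0.16 ± 0.21 and -0.01 ± 0.23 (SD, n = 25 and 29). Kdr, a receptor for vascular endothelial growth factor on chromosome 5, was gained in 10 of 25 Myc-gained and 0 of 29 Myc-neutral tumours. Egfr on chromosome 11, the epidermal growth factor receptor, was gained in 11 and 3. These listed genes were chosen as examples after their values were seen, and no chromosome passed under every setting: after centring, with the groups unchanged, 0 of the 19 passed (lowest adjusted p 0.102). Without KB2P tumour 10 the count was 3 (chromosomes 1, 6 and 8), and without KB2P tumour 12 it was 5.

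**Figure D3:**
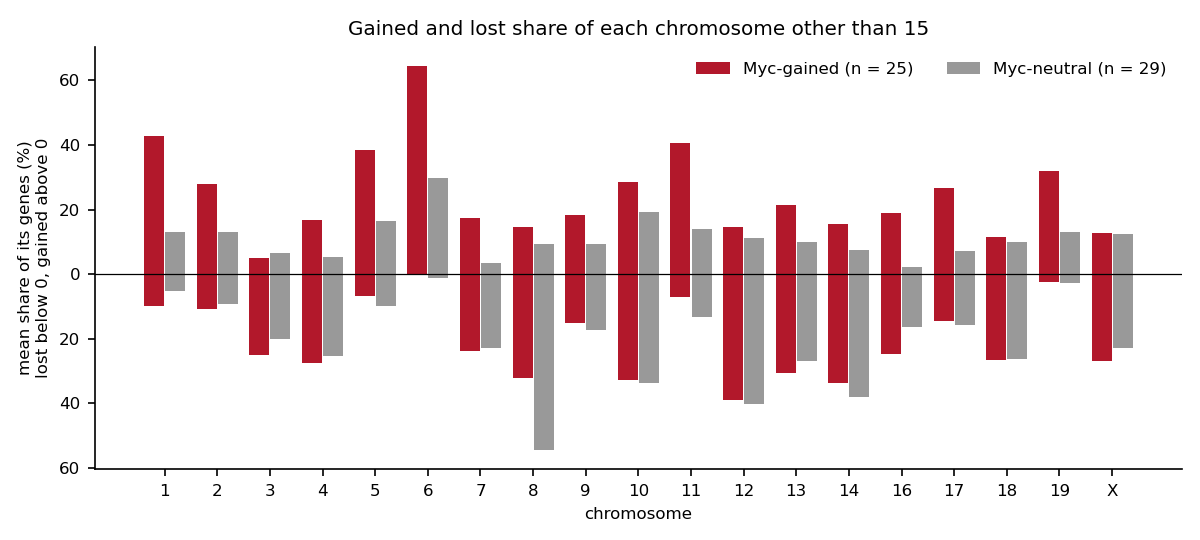
Mean share of the genes of each chromosome called as gained (above 0) and lost (below 0), in percent, over 25 Myc-gained and 29 Myc-neutral tumours. Gains are more common with Myc gain on chromosomes 1, 5, 6 and 11, the mean lost share of chromosome 8 is 32.3% and 54.5%, and chromosome 3 has a mean gained share of 5.00% and 6.37%.

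The gained share of single chromosomes, compared in the same way as an alternative chosen after the data were seen, also passed for chromosomes 2, 7, 16 and 17. Chromosome 16 had unlike values in the genotypes. Its gained share averaged 36.2% in Myc-gained and 1.40% in Myc-neutral KB2P tumours, against 5.13% and 3.05% in the KB1P groups, and its lost share averaged 44.4% in Myc-gained and 23.2% in Myc-neutral KB1P tumours. The difference between the genotypes in the gap of the mean segment value was 0.30, with an unadjusted permutation p of 0.0160 and an adjusted p of 0.305 over 19 chromosomes, so it did not pass. For the remaining chromosomes the adjusted p of that difference lay between 0.510 and 0.963.

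At the level of single genes no locus outside chromosome 15 passed. With limma on segment values and genotype in the model, 0 of 31495 genes were higher and 0 were lower at an adjusted p under 0.05 (0% in both directions), and the smallest adjusted p was 0.164. At an unadjusted p under 0.05, 5882 genes were higher (18.7%) and 18 were lower (0.0572%). The exact conditional test of call frequencies gave 0 genes gained more often (0%) and 0 genes lost more or less often (0%) after adjustment; without adjustment, 8616 genes were gained more often (27.4%) and 277 were lost more or less often (0.88%). The smallest adjusted p for gains was 0.0578. A positive difference was seen at 27468 genes (87.2%), and neighbouring genes share segments, so these counts are not independent. When tumours with Myc at 0.2 or above were counted as gained, 1289 of the 31495 genes passed as higher, on chromosomes 1, 2, 6, 8 and 10. No gene had a gap that passed as different between KB1P and KB2P (limma interaction, 0%, smallest adjusted p 0.738). At an unadjusted p under 0.05 the gap was larger in KB2P at 669 of the 31495 genes and smaller at 1317 of them.

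**Figure D4:**
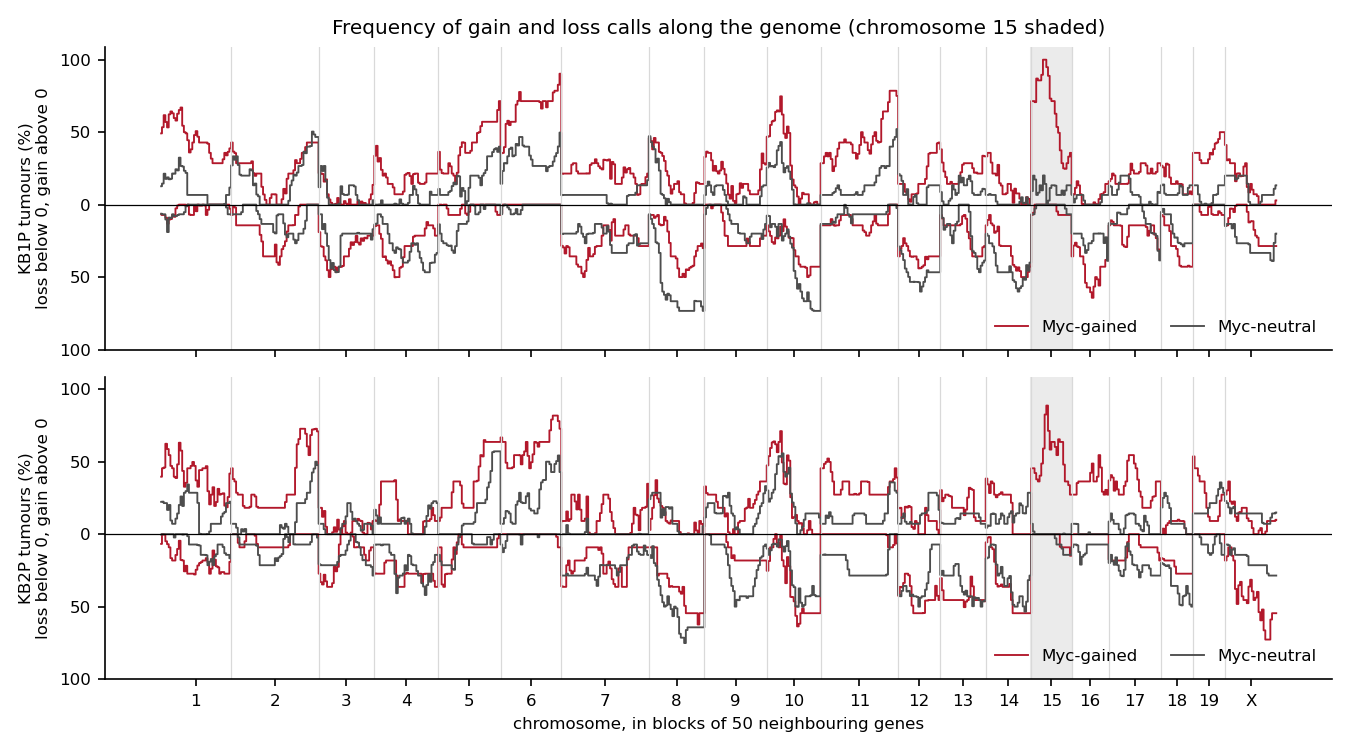
Percent of tumours with a gain call (above 0) and a loss call (below 0), averaged over blocks of 50 neighbouring genes along the chromosomes, for Myc-gained and Myc-neutral tumours of KB1P (top) and KB2P (bottom). The Myc-gained line runs above the Myc-neutral line over most of chromosomes 1, 6 and 11, and chromosome 15, which chose the groups, is shaded.

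Among genes that act with Myc, 23 of the 25 listed members were measured outside chromosome 15. None passed the limma test, 3 had an unadjusted p under 0.05 (13.0%, against 18.7% of all genes), and their median difference was 0.10, against 0.105 over all genes. Ruvbl1 on chromosome 6, an ATPase of chromatin-remodelling complexes that binds Myc, had a lowest, median and highest segment value of -0.311, 0.400 and 1.74 in Myc-gained tumours, against -0.255, 0.169 and 0.739 in Myc-neutral tumours. Its difference was 0.26 ± 0.09 (SE; limma, adjusted p = 0.171). It was gained in 17 of 25 Myc-gained and 6 of 29 Myc-neutral tumours, with an adjusted p of 0.0578 in the exact conditional test, which it shares with Mdm4 and Kdr among the listed genes. Bptf on chromosome 11, the largest subunit of the NURF remodeller, was gained in 12 and 6.

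Of the 19 genes of G1 and S phase control, 5 had an unadjusted limma p under 0.05, all higher (26.3%, against 18.7% of all genes). None of the 19 passed the limma test, and their median difference was 0.09, against 0.105 over all genes. E2f1 on chromosome 2, a transcription factor of S-phase genes, was gained in 13 of 25 Myc-gained and 7 of 29 Myc-neutral tumours, with a difference of 0.26 ± 0.09 (SE; limma, adjusted p = 0.171). Cdkn1b had a difference of 0.31 ± 0.11 (SE) with the same adjusted p. Its segment value was -0.191, 0.516 and 2.76 (lowest, median, highest) in Myc-gained tumours and -0.255, 0.283 and 0.968 in Myc-neutral tumours. The values of the groups overlapped for both genes.

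Receptor and signalling oncogenes (27 of 28 measured) had a median difference of 0.12, and 6 had an unadjusted limma p under 0.05 (22.2%, against 18.7% of all genes). Met, the receptor for hepatocyte growth factor, was gained in 7 of 11 Myc-gained and 1 of 14 Myc-neutral KB2P tumours, but in 5 of 14 Myc-gained and 5 of 15 Myc-neutral KB1P tumours. Its difference was 0.23 ± 0.08 (SE, limma, adjusted p = 0.171). In the limma interaction the genotype difference of the gap at Met had an unadjusted p of 0.0892, and no gene passed that test after adjustment. Egfr had a segment value of -0.494, 0.191 and 0.740 in Myc-gained tumours, against -0.776, -0.000625 and 0.406 in Myc-neutral tumours, with a limma adjusted p of 0.172.

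Apoptosis regulators (14 of 14 measured) had a median difference of 0.13, with 3 members higher at an unadjusted limma p under 0.05 (21.4%, against 18.7% of all genes). Casp8 had the largest difference among them at 0.51 ± 0.15 (SE; limma, adjusted p = 0.164). Its segment value was -0.688, 0.424 and 2.68 (lowest, median, highest) in Myc-gained tumours and -0.464, 0.0208 and 1.496 in Myc-neutral tumours, and gain calls stood at 9 of 14 against 4 of 15 in KB1P and 7 of 11 against 2 of 14 in KB2P. Bcl2l1, which encodes the survival protein Bcl-xL, was gained in 12 of 25 Myc-gained and 7 of 29 Myc-neutral tumours (limma, adjusted p = 0.172).

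No tumour suppressor passed the limma test. All 30 listed were measured, 7 had an unadjusted p under 0.05 with a higher value (23.3%, against 18.7% of all genes), and the median difference was 0.14. Fat1 had the smallest unadjusted p of all listed genes (limma difference 0.41 ± 0.11 SE, p = 0.00035, adjusted p = 0.164). Its segment value was -0.640, 0.0030 and 1.14 in Myc-gained tumours, against -0.938, -0.453 and 0.476 in Myc-neutral tumours. Loss calls at Fat1 stood at 1 of 14 Myc-gained against 10 of 15 Myc-neutral KB1P tumours, and at 3 of 11 against 7 of 14 KB2P tumours (exact conditional test, p = 0.0022, adjusted p = 1 over all genes). Foxp1 on chromosome 6, a forkhead transcription factor, was gained in 17 of 25 Myc-gained and 7 of 29 Myc-neutral tumours.

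No gene of homologous recombination or the DNA damage checkpoint passed either. All 37 listed were measured, 35 had a positive difference (94.6%, against 87.2% of all genes), 7 had an unadjusted p under 0.05 (18.9%), and the median was 0.12. Fanca on chromosome 8, a member of the Fanconi anaemia core complex, was lost in 10 of 25 Myc-gained and 19 of 29 Myc-neutral tumours (limma difference 0.29 ± 0.09 SE, adjusted p = 0.164). Trp53, which both models delete, had a segment value of -0.487, 0.0469 and 0.678 in Myc-gained and -0.780, -0.000625 and 0.370 in Myc-neutral tumours. Its locus was gained in 9 of 25 Myc-gained and 2 of 29 Myc-neutral tumours (limma, adjusted p = 0.184). Over the 6 lists the share of members higher at an unadjusted p under 0.05 lay between 13.0% and 26.3%, around the 18.7% of all placed genes.

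The most frequent events of the Myc-gained tumours were also present in Myc-neutral ones, at frequencies that were not tested. In Myc-gained KB1P tumours the most common gain lay on distal chromosome 6 in 31 tied genes from Ccdc91 on, in 13 of 14 tumours against 7 of 15 Myc-neutral ones. Next came Pdss2 on chromosome 10, an enzyme of coenzyme Q synthesis, with 11 of 14 against 7 of 15, and Slc39a11 on chromosome 11, a zinc transporter, with 11 of 14 against 4 of 15. The most common losses of that group lay on chromosome 16 from the predicted gene Gm49738 on, with 9 of 14 against 4 of 15. They were followed by Gm26081 on chromosome 3 (8 against 6) and Tle1 on chromosome 4, a transcriptional corepressor (8 against 5).

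In Myc-gained KB2P tumours the gain found in all 11 tumours was a stretch of 2 genes on chromosome 9, 2900052N01Rik and Gm4791. It was also called in 11 of 14 Myc-neutral KB2P tumours, but in 1 of 14 Myc-gained and 0 of 15 Myc-neutral KB1P tumours. The call was thus common in both Myc groups of KB2P. The difference between genotypes was not tested, and the genotypes share no library series. No spleen was titled KB2P, so the call could not be compared with normal tissue of that model. A2ml1 on chromosome 6 was gained in 9 of 11 Myc-gained against 6 of 14 Myc-neutral KB2P tumours, and Gm38022 on chromosome 1 in 9 of 11 against 7 of 14. The most common loss covered 177 tied genes on the X chromosome from Gprasp2 on, in 8 of 11 Myc-gained against 3 of 14 Myc-neutral tumours. Losses at Hsbp1 on chromosome 8 (7 of 11 against 9 of 14) and at Ndufs7 on chromosome 10, a subunit of respiratory complex I (7 of 11 against 7 of 14), were about as common in both groups.

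Strong amplification elsewhere in the genome covered a small share of the genes, although most tumours had some. The median share was 1.08% in Myc-gained and 0.635% in Myc-neutral tumours. Genes with a segment value of at least 1 outside chromosome 15 made up 1.43 ± 1.17% in Myc-gained and 0.865 ± 0.953% in Myc-neutral tumours (SD, n = 25 and 29; not tested). The altered share varied widely among the 4 KB2P tumours with focal and high Myc gain. It was 33.0% in tumour 17 and 20.8% in tumour 20, and 64.9% and 54.2% in the near-identical tumours 10 and 12. All Myc-gained KB2P tumours ranged from 19.9% to 64.9%, with a median of 49.5%. Tumour 20 had the lowest gained share of the Myc-gained group at 3.74%.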

How the data were processed

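Whole-genome DNA libraries of low coverage were made from tumours. The protocols in the labels describe BWA alignment, 20 kb bins, and correction for GC content and mappability, and they name a human build; the submitters' processing notes name mm10, BWA 0.7.17, cutadapt 2.5, SAMtools 1.10 and Picard. Per gene, the authors deposited log2 ratios, log2 segment values and a copy score; the score equalled the rounded copy number of the segment value in 99.9919% of entries. Segmentation and the reference of the ratios are not described in the labels, and read depth is unknown.

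A GRCm38.p6 gene table placed 32692 of 43513 symbols. Per-tumour measures were compared by permutation within genotype (100000 resamples, differences weighted by group sizes, Benjamini-Hochberg over 5 measures or 19 chromosomes; the smallest p this gives is 1e-05). Large-scale transitions were counted after removing segments under 3 Mb and joining those within 0.1. Genes were tested with limma 3.58.1 in R 4.3.3 (genotype + Myc status) and by an exact conditional test of calls over genotypes, adjusted over 31495 genes. Permutation and exact tests ran in Python 3.11.15 with SciPy 1.17.1, NumPy 2.4.6 and pandas 2.3.3. The permutation test, limma with genotype and Myc status, and the exact conditional test were tried on simulated data. For the difference between genotypes only the estimate of the permutation version was checked, and the limma interaction was not tried.

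The members, gene lists and tests were chosen with earlier results of these data known. From each list the 2 genes with the smallest p are named, since none passed; the most often gained and lost genes are named on 3 chromosomes per genotype, ties by position. Other listed genes were named after their values were seen.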

Additional observations from a re-analysis of the deposited data

Results flagged for a closer look

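A Myc call of 3 or more also occurred in 5 of the 44 tumours outside the comparison, against 0 of the 3 spleens, and no comparison above uses them. The call was present in 4 of 24 KB1(L1363P)P tumours, in 1 of the 2 KB1P tumours that are not adenocarcinomas, and in 0 of 18 KP tumours. The 2 strongest were KB1(L1363P)P tumour 1, sarcomatoid, called at 15 copies with a segment value of 2.91, and KB1(L1363P)P tumour 19, an adenocarcinoma, called at 9 copies with 2.13. The remaining 3 lay at 0.34, 0.54 and 0.52 (KB1(L1363P)P tumours 20 and 22 and KB1P tumour 5). Their altered shares outside chromosome 15 were 6.90%, 13.8%, 0.254%, 9.14% and 3.19%, each below the lowest Myc-gained KB1P or KB2P adenocarcinoma at 19.9%. Genotype and histology differ between these tumours and the adenocarcinomas, and the difference was not tested.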

How the results depend on the processing

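The gained share kept its direction under all 15 alternatives (8.67 to 17.1 points) and its side of the threshold under all but the restriction to Myc calls of 4 or more, which leaves 5 gained tumours including the near-identical pair. Under that restriction the differences were 13.7 points in gained share, 10.6 points in altered share, 41.1 breakpoints and -1.14 transitions. None of these had an adjusted p under 0.05 in the permutation test. At the same setting 0 chromosomes passed, and limma called 122 of 31495 genes, on chromosomes 1, 7 and 10. In KB2P alone the altered share (11.9 points) and breakpoints (70.8) did not pass. Breakpoints also fell short in KB1P alone (46.9), without KB1PM titles and the conflicting label (49.7), and with series (47.1) or title model (50.1) as strata. The lost share turned positive with Myc status set at 0.2 (0.20), without noisy tumours (0.23), centred (0.51) and doubly centred (1.01), never past the threshold. The genotype difference of the altered share gap became 2.48 points at a threshold of 0.2.

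Chromosomes that passed numbered 5 in the main comparison. They numbered 1 in KB1P alone (chromosome 1), 1 in KB2P alone (chromosome 16), 1 without KB1PM titles (chromosome 11) and 0 after centring. The count was 3 without KB2P tumour 10 (chromosomes 1, 6 and 8), 3 with title model as stratum (1, 6 and 11) and 3 with status and values centred (1, 6 and 8). Of the 31495 genes, 1289 had a higher segment value with Myc status set at 0.2, against 0 in the main comparison. There were 10 in KB1P alone, all on chromosome 8. With the adjustment made over all genes, chromosome 15 and unplaced genes included, 24 of the 31495 passed. Genes gained more often numbered 118 of 31495 at a threshold of 0.2. Centring lowered the median difference of all genes to 0.067. Of the 12 list genes whose segment value difference was recomputed under the alternatives, only Fat1 changed sign, to -0.024 with Myc calls of 4 or more. Leaving out KB2P tumours 10 or 12, title strata and double centring were chosen after seeing the data.

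No paired analysis was possible because replicate numbers only name tumours and the groups are compared within genotypes. No single tumour was left out by plan, since groups hold 11 to 15 tumours. Low coverage and rounding of segment values limit gains near the threshold, and read depth is unknown.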
